A study of Homo sapiens with 5 samples.

Results

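The TNFAIP3 locus on chromosome 6 was taken as every deposited DNase-seq peak overlapping 137.5 to 139.0 Mb of chromosome 6 (hg18), a window of 1.5 Mb in which TNFAIP3 lies at about 138.230 to 138.246 Mb. The window held 302 peaks of the 109231 peaks listed on chromosomes 1 to 22 and X. The nuclease DNase I digests open chromatin first, so a peak of released fragments marks an accessible stretch of the genome. The study mapped such sites in cell lines of B-lineage malignancies, 1 library and 1 peak list each. The Hodgkin lymphoma lines were L1236 and L428, for which 6 U/ml of DNase I had been used, and L591, for which 12 U/ml had been used. The lines placed by the labels in the non-Hodgkin group were Reh, a pro-B lymphoblastic leukaemia digested at 6 U/ml, and Namalwa, a Burkitt lymphoma digested at 12 U/ml. Every line was at passage 7. There were no replicates within a line, so no value below has an error within a line, and the lists give no read counts, so depth is unknown. The members were chosen by position alone, but the window had been selected on measured values of these lists, the number of regions with peaks in the Hodgkin lines and not in the others. The counts that follow are therefore descriptions, with no test.

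TNFAIP3 encodes A20, a ubiquitin-editing enzyme that shuts down NF-kB signalling downstream of tumour necrosis factor and Toll-like receptors. NF-kB itself switches the gene on, which makes A20 a negative feedback regulator. Hodgkin tumour cells are known for constant NF-kB activity, and inactivation of TNFAIP3 is a recurrent lesion of this lymphoma. In the RefSeq gene order (GRCh38.p14, used for names only) the gene stands between the long non-coding RNA genes WAKMAR2 and SIMALR. The nearest protein-coding neighbours are OLIG3, a developmental transcription factor, before it and PERP, a p53-induced membrane protein, after it. IFNGR1, the ligand-binding chain of the interferon gamma receptor, lies before OLIG3. No hg18 annotation was used here, so distances are given from the approximate TNFAIP3 start at 138.230 Mb. Peaks are not assigned to exons or introns or to these neighbours, and marker genes of the cell types were not checked.

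The promoter of TNFAIP3 is shown because every line had a peak at or next to the gene start. The sequence runs over the 250 bases before the start, on the plus strand at chr6:137867009-137867258 of GRCh38.p14, from RefSeq. Capitals mark the matches to the 10-base NF-kB consensus.
TNFAIP3: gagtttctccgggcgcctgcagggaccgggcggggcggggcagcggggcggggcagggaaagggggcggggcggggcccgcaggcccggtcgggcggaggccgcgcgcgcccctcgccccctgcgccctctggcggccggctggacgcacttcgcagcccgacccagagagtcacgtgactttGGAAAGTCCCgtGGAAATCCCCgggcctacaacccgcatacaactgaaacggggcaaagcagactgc
Both matches read on the minus strand, at -67 to -58 and -55 to -46 from the start. Of 35116 promoters of the same length, 9.96% held at least 1 match on either strand and 1.72% held at least 2. The GC box GGGCGG occurred 6 times between -223 and -154, with neighbouring copies sharing a base at -218 and at -182, and 42.6% of promoters held it on either strand. No match was found for AP-1 (TGANTCA, in 6.57% of promoters), the ETS core GGAAGT (19.5%), the E-box form CAGGTG (17.5%), TATAAA (10.7%) or CCAAT (32.0%), each searched on both strands. Other E-box forms were not searched, and the sequence above holds CACGTG. The GC content was 74%, against a median of 58% over all promoters. Among 16 genes of NF-kB and its feedback, 14 had a promoter in the table and 8 of these held the NF-kB consensus, namely BIRC3, CYLD, NFKB1, NFKB2, NFKBIA, REL, TNFAIP3 and TNIP1. Over all promoters the share was 9.96%. Of the same 14 genes, 13 held the GC box, 6 the ETS core, 4 CAGGTG, 4 CCAAT, 1 TATAAA and 0 AP-1. The genes were listed for their role in NF-kB signalling, so nothing is read from these counts. All motif hits are matches in letters, and the peaks, which are in another build, were not laid over them.

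The gene start lay under a peak in L428, L591, Reh and Namalwa, and the listed peak was wider in L428 and L591. The L428 peak at the start was 2260 bp wide (138228911 to 138231170) and stood at percentile 99.6 of its list by score, the peak area given by the authors. The L591 peak was 1920 bp wide (138228871 to 138230790), at percentile 97.0. In Reh the peak was 880 bp wide (138229871 to 138230750), at percentile 83.8, and in Namalwa it was 230 bp wide (138229941 to 138230170), at percentile 32.1. Because the scores have no scale known to be common to the lists, each is compared only with the other peaks of its own line. Widths also differ between the lists, with medians outside the window from 290 bp in Namalwa to 450 bp in L591. Whether depth or threshold accounts for the widths at the start was not tested. L1236 differed in shape. It had no peak over the start so placed, and its nearest peak, 350 bp wide at percentile 52.2, ended 270 bp before it. Because the start is approximate, whether the narrow L1236 or Namalwa peak covers the true start is not settled. A second L1236 peak of 180 bp lay beyond the Reh and Namalwa peaks at 138231011 to 138231190, at percentile 4.26. Peaks of different lines that overlapped were joined into merged regions, and here they formed the 1 region of the window with a peak in all 5 lines, a class that makes up 5.12% of the 59212 merged regions. The L1236 peak before the start overlapped the wide L428 and L591 peaks, and the second L1236 peak that of L428 alone. Neither L1236 peak shared a base with the Reh or Namalwa peak.

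Within the gene, the Hodgkin lines had further peaks and the non-Hodgkin lines had none. In L428, 14 peaks overlapped the gene interval, in L591 4 and in L1236 3, against 1 in Reh and 1 in Namalwa, the peaks at the start. About 4 kb after the start, a region at 138233411 to 138234520 held an L1236 peak at percentile 79.9, an L428 peak at 98.7 and an L591 peak at 83.7. A region about 6 kb after the start, at 138236021 to 138236840, held an L1236 peak at percentile 33.1, an L428 peak at 99.4 and an L591 peak at 91.0. In both regions the percentile was highest in L428. Beyond about 8 kb the gene interval had peaks in L428 alone, among them a 1120 bp peak at 138241271 to 138242390, at percentile 94.2. In the 10 kb before the start, L428 and L591 shared regions at 138226001 to 138226400, 138227061 to 138227530 and 138227611 to 138228450. The last of these was the strongest, at percentile 96.6 in L428 and 76.7 in L591. No line had a peak in the 10 kb after the gene.

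**Figure D1:**
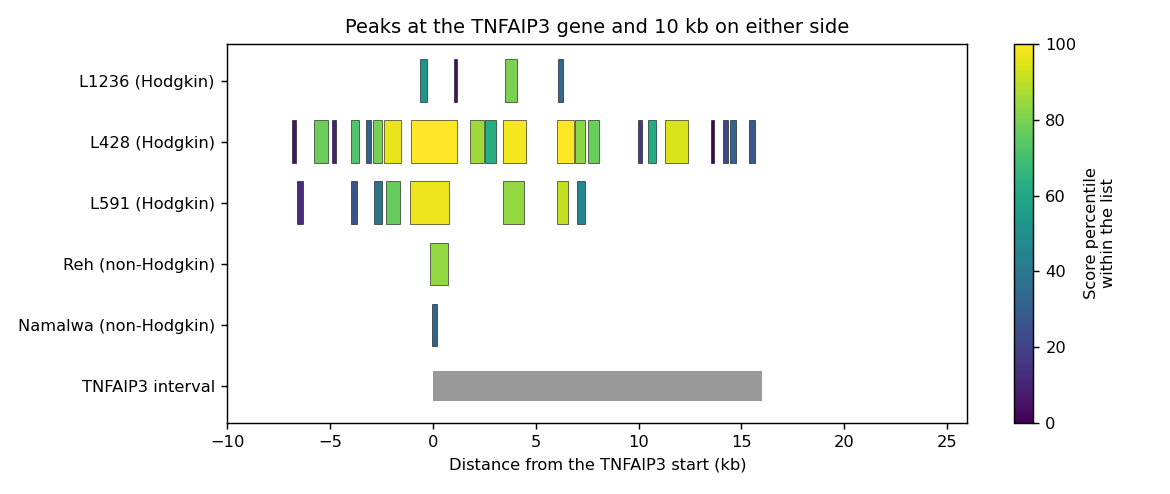
Peaks at the TNFAIP3 interval and 10 kb on either side, by distance from the gene start in kb (x axis), 1 row per line, each box a peak drawn to its width and coloured by its score percentile within the line's list. L428 and L591 have a wide peak over the approximate start, Reh and Namalwa a narrower one, and L1236 a pair of peaks that leave that position uncovered.

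The peaks of the locus reached far beyond the gene in the Hodgkin lines. L428 had 177 peaks in the window, L591 94 and L1236 24, against 6 in Reh and 1 in Namalwa. All 3 Hodgkin lines were above both non-Hodgkin lines, and the Hodgkin lines also lay far apart from each other. The window held 0.76% of the L428 list, 0.353% of the L591 list and 0.0936% of the L1236 list, against 0.0215% of the Reh list and 0.0174% of the Namalwa list. Peaks covered 94.2 kb of the window in L428, 51.9 kb in L591 and 8.13 kb in L1236, against 2.28 kb in Reh and 0.23 kb in Namalwa. The order by covered length was that by number. Among the lines digested at 6 U/ml, L428 and L1236 had 177 and 24 peaks, against 6 in Reh. At 12 U/ml, L591 had 94, against 1 in Namalwa. Over the genome, the L428 list held 23288 peaks, the L591 list 26612 and the L1236 list 25646, against 27925 in Reh and 5760 in Namalwa. With each list limited to its 5760 highest scores, L428 had 85 window peaks, L591 18 and L1236 4, against 1 in Reh and 1 in Namalwa. The window was selected for peaks in the Hodgkin lines and not in the others, so nothing is read from these differences. Whether DNase I concentration or list length accounts for them was not tested. Nearest to the bounds of the window, the first L428 peak inside lay at 137.53 Mb (percentile 96.7) and the last outside at 137.49 Mb (percentile 58.5). At the other end the last inside lay at 138.89 Mb (percentile 5.87) and the first outside at 139.04 Mb (percentile 31.2).

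**Figure D2:**
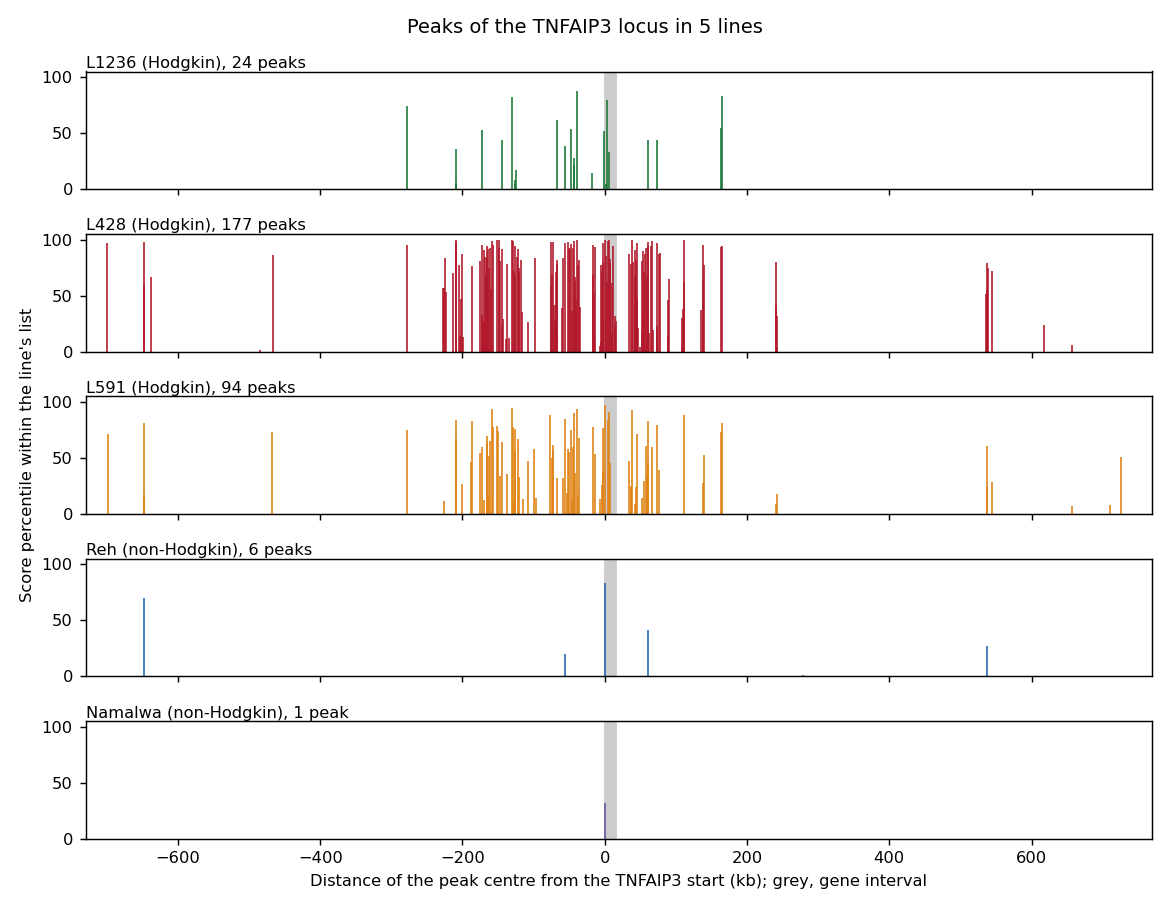
Peaks of the window by distance of their centre from the TNFAIP3 start in kb (x axis), 1 panel per line, with the score percentile within the line's list as height and the gene interval in grey. The 177 L428 and 94 L591 peaks crowd around the gene, the 24 L1236 peaks fall among them, and Reh and Namalwa have 6 and 1, of which the Reh peak about 278 kb after the start is too low to see.

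Most of these peaks fell in a stretch of 400 kb around the gene. It was defined after the values had been seen, as the run of 50 kb bins with at least 5 L428 peaks each, and reached from 250 kb before to 150 kb after the start. This stretch held 157 of the 177 L428 peaks, 79 of the 94 L591 peaks and 21 of the 24 L1236 peaks, against 3 of 6 in Reh and 1 of 1 in Namalwa. Its 8 bins held between 10 and 27 L428 peaks, most in the 50 kb from the start. In L591 they held between 3 and 16, most in the 50 kb before the start, where L1236 also had its highest bin, with 6. Peaks covered 21.4% of the bases of the stretch in L428, 11.4% in L591 and 1.76% in L1236, against 0.357% in Reh and 0.0575% in Namalwa. L428 peaks there followed each other at a median of 1.17 kb from centre to centre and L591 peaks at 2.27 kb, while the rest of the lists outside the window had medians of 27.8 kb and 25.3 kb. The stretch was chosen for dense L428 peaks and the window for Hodgkin peaks, so nothing is read from these differences.

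Peaks were sparser on either side of the stretch, which for L428 follows at its edges from how the stretch was defined. Between the start of the window and the stretch, L428 had 7 peaks in 480 kb, L591 5 and L1236 1, against 1 in Reh and 0 in Namalwa. From the stretch to the end of the window, 620 kb, the numbers were 13 in L428, 10 in L591 and 2 in L1236, against 2 in Reh and 0 in Namalwa. In the 1.5 Mb before the window the lines were closer together, with 22 peaks in L428, 17 in L591 and 15 in L1236, against 11 in Reh and 2 in Namalwa. In the 1.5 Mb after it, L591 had 24, L428 18 and L1236 3, against 13 in Reh and 2 in Namalwa. L1236 thus had fewer peaks than Reh in the stretch of chromosome that follows the window. The widest gap between L428 peaks in the window ran from about 243 to 536 kb after the start, and that of L591 from about 243 to 537 kb. L1236 had no peak from about 165 kb after the start to the end of the window. Reh had none from about 648 to 56 kb before the start, and Namalwa none after its peak at the start.

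**Figure D3:**
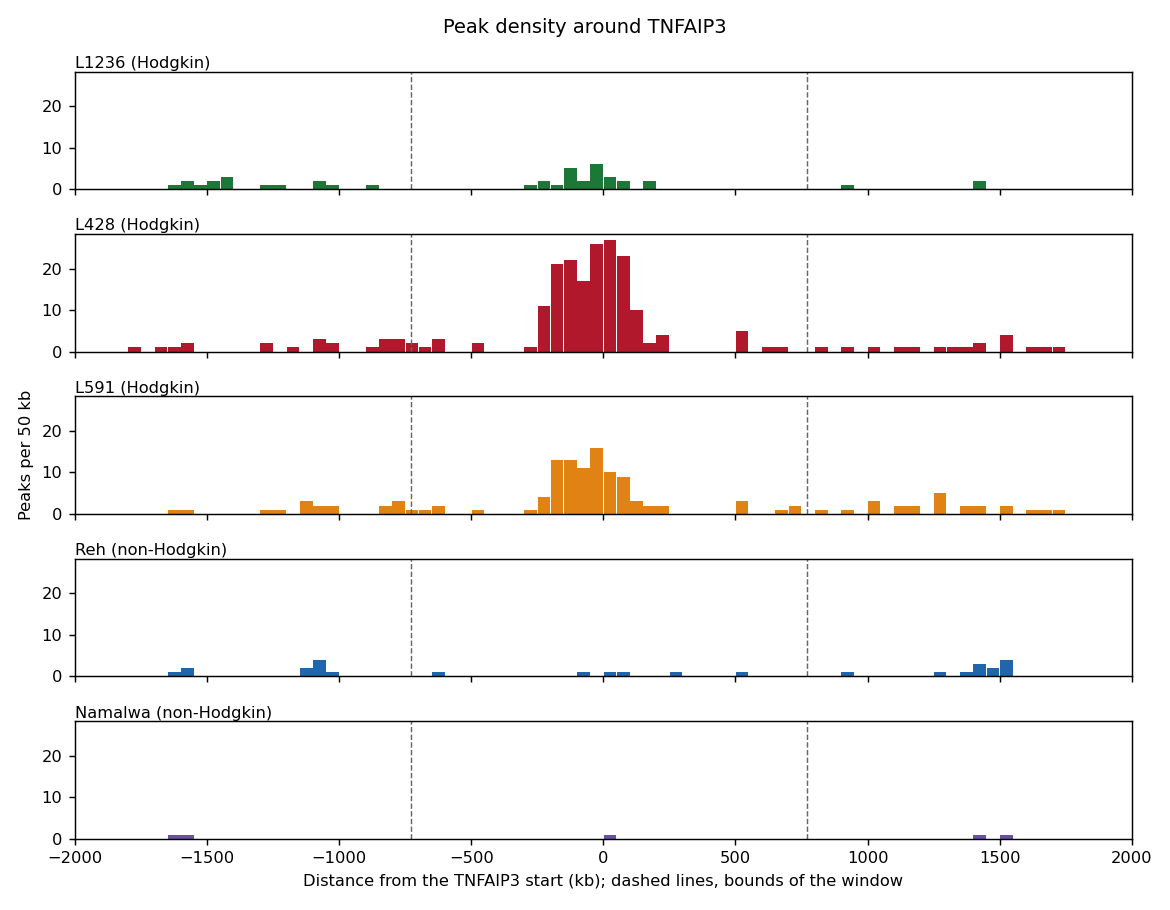
Number of peaks per 50 kb (y axis, the same scale in each panel) by distance from the TNFAIP3 start in kb (x axis), 1 panel per line, with dashed lines at the bounds of the window. L428 reaches 27 and L591 16 peaks per 50 kb near the gene and both return to 5 or fewer outside the 400 kb stretch, whereas L1236 reaches 6 and Reh stays at 1 or below within the window.

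Set beside the rest of the genome, the window was the most crowded in L428 and L591. The genome was divided into 1891 windows of 1.5 Mb with a peak in any line, on a grid placed so that the locus was itself a window. The locus ranked 1 in L428, with 177 peaks against 96 in the next window and a median of 8, a ratio to the median of 22.1. It also ranked 1 in L591, with 94 peaks against 82 in the next window and a median of 10, but ranked 3 by covered bases and 2 with windows shifted by 0.75 Mb. L1236 had 24 peaks against a median of 8, which placed the locus at rank 315. In Reh the 6 peaks stood against a median of 7, and in Namalwa the single peak against a median of 1. In both non-Hodgkin lists the number of peaks at the locus was thus near that of a median window. The locus was selected for regions with peaks in the Hodgkin lines and not in the others, so nothing is read from these ranks.

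**Figure D4:**
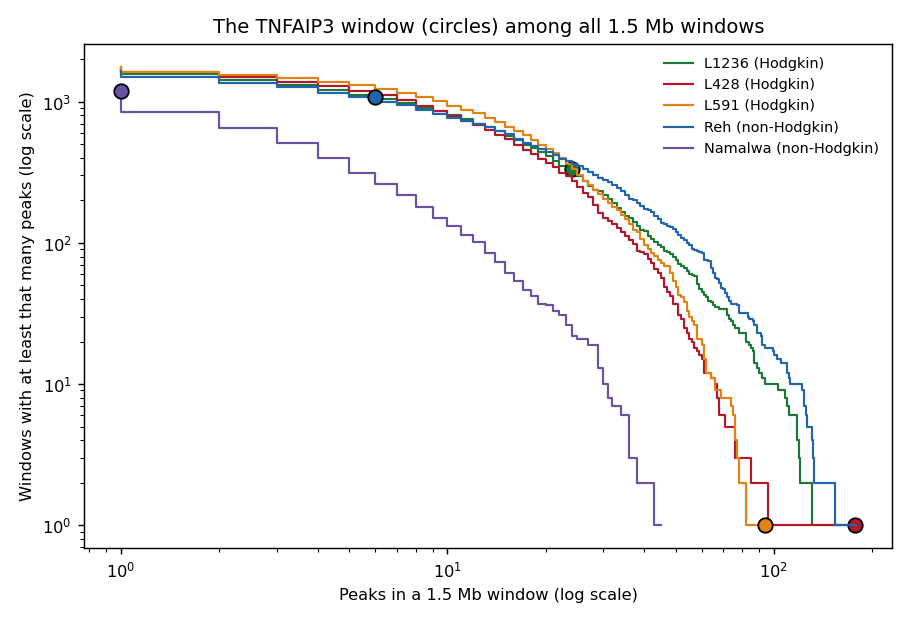
For each line, the number of 1.5 Mb windows (y axis, log scale) that hold at least the number of peaks on the x axis (log scale), with a circle at the TNFAIP3 window. The circles of L428 (177 peaks) and L591 (94) end their curves, that of L1236 (24) lies at rank 315, and those of Reh (6) and Namalwa (1) lie on the flat left part.

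Peaks of the Hodgkin lines in the window often coincided. All 24 L1236 window peaks overlapped an L428 peak, where 38.7% of the L1236 peaks elsewhere did. With an L591 peak, 23 of the 24 overlapped, where 44.6% did elsewhere. With centres required to lie within 250 bp, 18 of the 24 met an L428 peak and 18 an L591 peak. Of the L591 window peaks, 87 of 94 overlapped an L428 peak (92.6%), where 55.0% did elsewhere. In the other direction, 49.2% of the L428 window peaks overlapped an L591 peak, where 67.5% did elsewhere. The window was selected on regions shared by these lines and L428 peaks are dense in it, so nothing is read from these differences.

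Joined over lines, the window peaks made 182 merged regions. L428 was present in 174 of them, where it had a peak in 36.5% of all merged regions, L591 in 91 (43.5% of all), L1236 in 21 (41.1%), Reh in 6 (44.0%) and Namalwa in 1 (8.44%). The largest class was L428 alone, with 90 regions, where 9.02% of all merged regions are of this class. L428 and L591 without any other line followed with 61 (5.74% of all). L591 had 7 regions of its own (12.5% of all) and L1236 had 0 (19.8% of all). All 21 regions with an L1236 peak also had L428 and L591 peaks, and in 18 of these neither non-Hodgkin line had one, where 4.33% of all merged regions are Hodgkin-only in this sense. The window was chosen for that class, so nothing is read from the difference. With the upper 50% of each list 8 of 119 regions were Hodgkin-only (3.83% of all merged regions), and with lists of equal length 4 of 85 (2.68% of all). Without L1236 the class asks for L428 and L591 alone and held 79 of 182 regions, where it made up 12.5% of all.

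The Hodgkin-only regions reached from about 278 kb before to 165 kb after the gene start, with 13 before it, 2 in the gene and 3 after it. Their median percentile was 95.8 in L428, 76.8 in L591 and 48.6 in L1236. The region at 138098241 to 138099790, about 131 kb before the start, was high in all 3 lists, with percentiles of 99.5 in L428, 94.9 in L591 and 81.8 in L1236. So was the region at 138190031 to 138192030, about 39 kb before the start, with 99.4, 94.0 and 87.9 in the same lines. Between these, regions at 138182491 to 138183400 and 138186581 to 138187510 lay about 47 and 43 kb before the start. The outermost were 137952131 to 137952730 before the gene and the neighbouring 138393741 to 138394300 and 138394571 to 138395150 after it, and these 3 lay outside the 400 kb stretch. The remaining ones before the gene were 138019901 to 138020940, 138021041 to 138021790, 138056471 to 138057000, 138085291 to 138085930, 138103381 to 138104120, 138104121 to 138104670, 138162721 to 138163290 and 138212401 to 138213150. After the gene, 138302501 to 138303420 lay about 73 kb from the start.

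The highest L428 peak of the window was not in this class. It lay at 138341001 to 138341950, about 111 kb after the start, with rank 69 in the list of 23288 and percentile 99.7, and was shared with L591 alone. The L428 peaks next in rank were the one at the start, those about 149 and 131 kb before it, and one about 151 kb before it, with ranks 83 to 130. Of the 177 L428 window peaks, 50 were in the upper 10% of the list, against 6 of 94 in L591 and 0 of 24 in L1236. The highest L591 peak was the one at the start, with rank 812, followed by those about 131, 39 and 159 kb before it and 38 kb after it. The highest L1236 peak was that in the region about 39 kb before the start, with rank 3110. It was followed by peaks about 165 kb after, 131 kb before, 4 kb after and 278 kb before the start.

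L428 window peaks were also wider, at a median of 480 bp against 320 bp in the rest of its list, and 6.21% were 1000 bp or wider, against 1.49% elsewhere. Peaks of that width made up 6.38% of the L591 window peaks and 0% of the L1236 ones, against 7.81% and 2.54% elsewhere. In L591 the median width was 485 bp in the window and 450 bp elsewhere, and in L1236 it was 310 bp in both. The score per bp separated less. Its median was 11.0 in the window and 10.4 elsewhere in L428, 9.68 and 9.69 in L591, and 17.2 and 19.4 in L1236. The median L428 percentile of 72.3 by score was accordingly 56.3 by score per bp and 79.6 by width. In L591 the median percentile by score was 55.8 and in L1236 43.6, against 34.1 in Reh.

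Within L428, peaks of regions shared by more lines scored higher. The 90 peaks in regions of L428 alone had a median percentile of 40.4, the 63 in regions of 2 lines 86.4, and the 24 in regions of 3 or more lines 96.4. The same order held in L591, with 13.8 for 7 peaks, 47.2 for 64 and 79.7 for 23. Median widths rose in the same order, with 310, 620 and 700 bp in L428 and 310, 450 and 630 bp in L591. Whether width accounts for the order was not tested, and the rest of the lists was not split in this way. L1236 had peaks in regions of 3 or more lines alone, with a median of 43.6 and a range from 4.26 to 87.9. Across the 84 regions with both an L428 and an L591 peak, the percentiles of these lines had a Spearman rho of 0.79, where it was 0.59 over the 14195 such regions of the genome. These values are across regions, which share their libraries, and carry no p-value. In 81 of the 84 regions the percentile was higher in L428. Over the genome that held in 6029 of the 14195, where the median percentile was 63.5 in L428 and 67.8 in L591. The window was selected for Hodgkin peaks and is dense in L428, so nothing is read from these differences from the genome. Across the 21 regions with L1236, rho was 0.06 with L428 and 0.10 with L591, where it was 0.38 over 9349 and 0.40 over 10347 regions of the genome. With 21 regions these values are given without a reading.

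**Figure D5:**
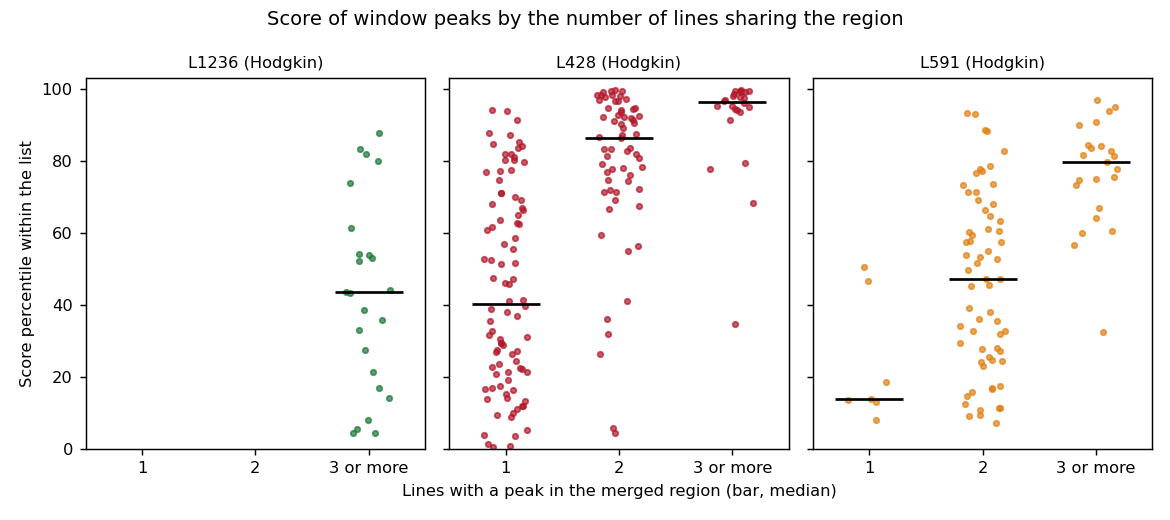
Score percentile within the list (y axis) of each window peak of the 3 Hodgkin lines, by the number of lines with a peak in the merged region (x axis), each point a peak and each bar a median. The median rises from 40.4 to 96.4 in L428 and from 13.8 to 79.7 in L591 with the number of lines, and L1236 has points in the last column alone.

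The non-Hodgkin lines had few sites in the window. Of the 6 Reh peaks, 5 overlapped an L428 peak and 5 an L591 peak, where 36.1% and 44.5% of the Reh peaks elsewhere did. Window peaks of L428 and L591 were dense, and with 6 peaks nothing is read from these shares. Apart from the gene start these were 137581831 to 137582520 and 138766751 to 138767220, about 648 kb before and 537 kb after the start, shared with L428 and L591 (3.55% of all merged regions are of this class). The other shared ones were 138174101 to 138174940 and 138290511 to 138291050, about 55 kb before and 61 kb after it, shared with all 3 Hodgkin lines (4.05% of all). The sixth Reh peak, at 138508181 to 138508330, was found in Reh alone (21.5% of all) and stood at percentile 0.788 of its list. At 138290511 to 138291050 the percentiles were 43.7 in L1236, 97.9 in L428 and 82.7 in L591, against 41.4 in Reh. At 138174101 to 138174940 they were 38.7, 97.0 and 84.4 in the Hodgkin lines in the same order, against 20.1 in Reh. In 176 of the 182 regions (96.7%) neither non-Hodgkin line had a peak, against 55.9% of all merged regions. The window was selected for regions without peaks in these lines, so nothing is read from the difference.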

How the data were processed

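Reads had been mapped to hg18 with Bowtie 1.00, per the submitters' processing notes, then extended to 146 bp and binned at 10 bp, per the names in the deposited files. How peaks were called, at which threshold and from how many reads is not stated in the sources used here. Each line has its own list, and the L1236 list lacks the mark qcTrimmed that the others carry. The deposited score is the authors' peak area, all values of which are divisible by 8, with no stated scaling to depth, so it was used as a percentile within a list.

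Peaks of chromosomes 1 to 22 and X were used. A shared stretch of at least 1 bp counted as overlap, and peaks that overlapped across lines were joined into merged regions, a line being present if any of its peaks was part. For ranks, a peak was placed by its centre. The gene interval is approximate. The window, the gene lists and the motifs were chosen with earlier results of these data known, and no test between groups was made. Regions named are those within 10 kb of the gene, those of all 3 Hodgkin lines, those with a Reh or Namalwa peak, and the 5 highest peaks of each line; of long lists, examples are given. Positions are 1-based in hg18. Merging was tested on simulated lists whose sites lay too far apart to join, so the joining of closely spaced peaks was not tested. Python 3.11.15, numpy 2.4.6, pandas 2.3.3, scipy 1.17.1 and matplotlib 3.10.9 were used.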

Additional observations from a re-analysis of the deposited data

How the results depend on the processing

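Peak numbers, covered lengths, merged and Hodgkin-only regions, overlap shares of Hodgkin lines, window ranks, median percentiles and the highest bin were recomputed under other settings. Of these 98 values, 66 stayed within 1.5 times the reported count or rank, or within the 95% interval of a share or median. Some of the 66 could hardly move, so the tally is no measure of robustness. Ranks by share of the list equal ranks by number of peaks within a line, and leaving out a line only loosens the Hodgkin-only class. Values at the gene, in the 400 kb stretch and its flanks, by sharing, the correlations and the motifs were not recomputed. With lists of equal length, the window held 4 peaks in L1236, 85 in L428, 18 in L591 and 1 in Reh, 85 merged regions and 4 Hodgkin-only regions. Covered lengths were then 2550 bp in L1236, 16490 bp in L591 and 880 bp in Reh. The overlap shares became 21.2% for L428 in L591, 100% for L591 in L428 and 100% for L1236 in L591. With the upper 50% of each list, L1236 had 10 peaks (4710 bp), L591 53, Reh 2 (1350 bp) and Namalwa 0 (0 bp), with 119 merged and 8 Hodgkin-only regions, and 98.1% of L591 peaks overlapped L428. With centres within 250 bp, 75% of L1236 peaks overlapped L428 and 75% L591. Widening the window by 0.5 Mb on each side gave Reh 15 peaks. Windows shifted by 0.75 Mb placed the locus at rank 201 in L1236 and 2 in L591, and covered bases placed it at rank 3 in L591. In 25 kb bins the highest L1236 density was 10 per 50 kb. The median L428 percentile was 56.3 by score per bp and 79.6 by width. Leaving out 1 line at a time gave 18 to 79 Hodgkin-only regions, the 79 without L1236, where the class made up 12.5% of all merged regions. Leaving out L428 or L591 instead gave shares of all regions of 7.66% and 6.95%, and leaving out Reh or Namalwa 10.6% and 4.34%, so these counts are not on 1 scale. The order L428, L591, L1236, Reh, Namalwa held for peak number in every setting except that Reh and Namalwa tied at 1 with equal lists. The window was selected for Hodgkin peaks and every setting reuses the same lists, so nothing is read from this order. No paired analysis was possible because the labels give no replicate numbers and each line has 1 list. Counts, widths and scores are limited by the unknown depth and threshold of each list.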
